A study of Homo sapiens with 12 samples.

Results

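The aminoacyl-tRNA synthetases of differentiated Caco-2 cells were followed at the mRNA level across silver exposures. The set held 35 named enzymes, 19 cytosolic and 16 mitochondrial. An enzyme was measured where the array annotation tied a probe set to its gene symbol alone, and the probe set with the highest mean over the 12 arrays stood for the gene. By this rule 32 of the 35 were measured among 19775 genes, 17 cytosolic and 15 mitochondrial. MARS1, QARS1 and TARS2 had only probe sets that carry several symbols, and no value is given for them.

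A synthetase joins one amino acid to the tRNAs that carry it, and so supplies the charged tRNAs that ribosomes read. Human cells keep a cytosolic set for the ribosomes of the cytoplasm and a largely separate, nuclear-encoded mitochondrial set for the ribosomes inside the organelle. GARS1 and KARS1 each make both forms from a single gene. When charged tRNAs run short, the kinase GCN2 (EIF2AK4) phosphorylates the initiation factor eIF2, and translation of the transcription factor ATF4 rises. Many cytosolic synthetase genes are known targets of ATF4.

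Caco-2, an established line from a human colon carcinoma, differentiates toward small intestinal absorptive cells after confluence. All cells were at passage 22, were used 21 days after confluence and spent 24 h in DMEM with insulin, transferrin and selenium. There were 4 groups of 3 arrays. They were medium alone, AgPURE silver nanoparticles with a surfactant coat at 2.5 µg/mL, the same particles at 25 µg/mL, and silver ions given as AgNO3 at 0.5 µg/mL. The design sets particles against ions, at different doses, and no group received the surfactant alone. Whether replicate arrays stem from independent cultures is not stated in the labels. The p-values therefore rest on array-to-array spread that could be technical.

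The deposited values are log2 expression values, in which a step of 1 is a doubling. Arrays of 1 group correlated across probe sets with r of 0.992 or higher, and medium with 25 µg/mL arrays with r between 0.978 and 0.981. The enterocyte genes VIL1 and CDH17 lay at means of 10.23 and 10.61, against 5.80 for the median gene, while KRT20 (4.63), ANPEP (4.19), ALPI (5.47) and APOA4 (5.36) lay below it. Of 4 leukocyte and 3 endothelial markers 0 lay above the median gene, and of 4 fibroblast markers 1 did, COL1A1. At 25 µg/mL 5 of 8 enterocyte markers were lower and 0 higher by limma (adjusted p under 0.05), against 19.3% and 14.1% of all genes. The mean over the 8 lay between 6.39 and 6.44 per array, against 6.90 to 6.95 in medium. The means of the fibroblast, leukocyte and endothelial lists lay at 5.48 to 5.54, 4.77 to 5.06 and 4.95 to 5.15 at 25 µg/mL, and at 5.58 to 5.70, 5.06 to 5.10 and 4.70 to 4.85 in medium. Within these lists LUM (-0.90) and CD14 (-0.71) were called lower, and COL1A2 (0.34) and CDH5 (0.96) higher. All of these lay below the median gene. The part of these markers in the results below was not tested. In bulk samples such as these, fewer cells of a type and less RNA per cell cannot be told apart.

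At 25 µg/mL the synthetases did not move as a block. The cytosolic enzymes HARS1, CARS1, WARS1, TARS1 and FARSA rose, and the cytosolic AARS1 fell. Among the mitochondrial enzymes MARS2, AARS2 and RARS2 rose, and IARS2, WARS2, HARS2 and NARS2 fell. All of these changes were smaller than 2-fold, the largest being the 1.69-fold rise of MARS2. By limma with Benjamini-Hochberg adjustment over all genes, 13 of 32 members passed an adjusted p of 0.05, or 40.6%, against 33.4% of all genes. Among cytosolic enzymes 6 of 17 (35.3%) passed, and among mitochondrial enzymes 7 of 15 (46.7%). The share of cytosolic members called was thus near the background of this comparison. By direction, 14.1% of all genes were called higher and 19.3% lower. The 3 arrays of each group did not overlap for 21 members, 13 higher and 8 lower, where 45.7% of all genes did so, 19.8% higher and 25.9% lower.

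Directions are relative to the authors' normalization. Control probe sets were brighter at 25 µg/mL. Scaling each array on its poly-A controls or on its hybridization controls lowered the 25 µg/mL difference of each gene by the same amount, which took the median of all genes from -0.01 to -0.62 and -0.44. Under these scalings 0 members were higher, and 16 and 15 were lower. The 5 members called lower under the authors' normalization stayed lower under both, and no rise of a member stayed called under either. Differences between members within an array are not affected by such scaling.

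**Figure D1:**
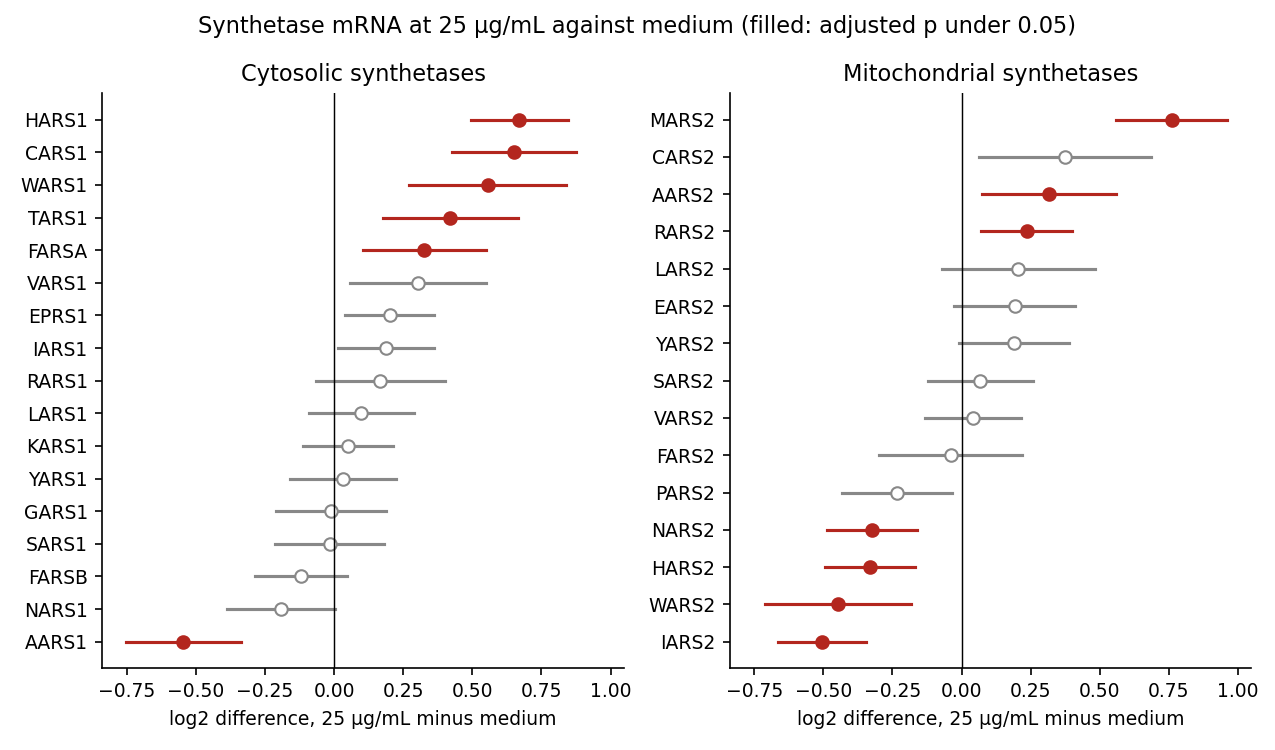
Log2 difference between 25 µg/mL nanoparticles and medium for the 17 cytosolic (left) and 15 mitochondrial (right) synthetases, under the authors' normalization. Points are limma estimates, lines are 95% confidence intervals from 3 against 3 arrays, and filled red points passed an adjusted p of 0.05. HARS1 (0.67) and MARS2 (0.76) head the panels and AARS1 (-0.55) and IARS2 (-0.51) close them; under poly-A and hybridization control scaling the rises lost their calls.

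Histidyl-tRNA synthetase, HARS1, had log2 values of 8.99, 9.09 and 9.01 in medium and 9.62, 9.73 and 9.74 at 25 µg/mL. All 3 exposed arrays lay well above all medium arrays, and those at 2.5 µg/mL (8.86 to 9.08) and with ions (8.97 to 9.04) lay in or near the medium range. The rise was 1.59-fold (log2 difference 0.67 ± 0.08 SE, limma adjusted p = 1.9e-05), and became 0.06 and 0.24 under poly-A and hybridization control scaling.

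CARS1 charges cysteine, the amino acid that metallothioneins are rich in. Its values were 10.88, 11.00 and 11.03 in medium and 11.66, 11.64 and 11.57 at 25 µg/mL, with no overlap. The difference was 0.65 ± 0.10 (SE, limma adjusted p = 0.0002), or 0.04 and 0.23 under the control scalings. Its other 3 probe sets, with means of 8.46, 6.72 and 5.25, gave 0.70, 0.37 and 0.14. The dimmest of these had the largest variance, and with it the call was lost. With ions the 3 CARS1 arrays (11.10 to 11.27) also lay above medium, but the difference of 0.22 did not pass (unadjusted p = 0.056).

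WARS1, a tryptophanyl-tRNA synthetase that is also induced by interferon, had values of 9.12, 9.15 and 8.88 in medium and 9.63, 9.62 and 9.57 at 25 µg/mL. Its groups did not overlap either, and the difference was 0.56 ± 0.13 (SE, limma adjusted p = 0.0044), turning to -0.06 under poly-A scaling. At 2.5 µg/mL its arrays spread from 8.99 to 9.44, across the medium range and beyond.

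TARS1, for threonine, rose by 0.42 ± 0.11 (SE, limma adjusted p = 0.010), from 10.33 to 10.60 in medium to 10.80 to 10.92. This direction depended on the probe set and the scaling. The second TARS1 probe set, with a mean of 5.14, differed by -0.78, the mean of both by -0.18, and poly-A and hybridization scaling gave -0.19 and -0.01. The call was also lost without medium replicate 3. FARSA, the alpha subunit of the cytosolic phenylalanyl enzyme, rose by 0.33 ± 0.10 (SE, limma adjusted p = 0.025), with -0.29 and -0.10 under the control scalings. Its exposed arrays lay at 7.91, 8.26 and 8.19 against 7.75, 7.87 and 7.75 in medium, and the call was lost without medium replicate 1 or 3 or 25 µg/mL replicate 2 or 3. FARSB, the beta subunit of the same enzyme, had a difference of -0.12 ± 0.08 (SE) and did not pass on the probe set used, whereas its dim probe sets, with means of 3.64 and 4.34, gave 0.35 and 0.50.

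Alanyl-tRNA synthetase, AARS1, was the one cytosolic member that fell. It had values of 11.79, 11.79 and 11.67 in medium and 11.22, 11.20 and 11.19 at 25 µg/mL. Its exposed arrays were the lowest of all 12, while those at 2.5 µg/mL (11.73 to 12.06) and with ions (11.70 to 11.94) reached above medium. The fall was 1.46-fold (-0.55 ± 0.10 SE, limma adjusted p = 0.00048), and it kept its call under each alternative scaling and without any single array.

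The other 11 measured cytosolic enzymes did not pass. Their differences ran from -0.19 for NARS1 to 0.30 for VARS1. The 95% intervals of KARS1 (-0.11 to 0.21), GARS1 (-0.21 to 0.19) and SARS1 (-0.21 to 0.18) were narrow and spanned 0 under the authors' normalization. EPRS1, a fused enzyme for glutamate and proline, had 0.20 ± 0.08 (SE, limma adjusted p = 0.055). LARS1 had 0.10 on the probe set used, while its 3 dimmer probe sets gave 0.28, 0.31 and 0.49. These 3 passed in limma over all probe sets (adjusted p = 0.026, 0.0066 and 0.011).

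Several cytosolic synthetases are held in one large multi-synthetase complex. Of its 7 named enzymes 5 were measured, EPRS1, IARS1, KARS1, LARS1 and RARS1. By limma 0 of these 5 passed at 25 µg/mL, with 2 at an unadjusted p under 0.05 and a median of 0.17. Outside the complex 6 of the 12 measured cytosolic enzymes passed, with a median of 0.17 as well. Over all genes 33.4% passed, and 8109 of 19775 had an unadjusted p under 0.05. The difference between these counts was not tested, and it depends on the probe set chosen. The other LARS1 probe sets, with means of 9.96, 9.71 and 5.45, passed in limma over all probe sets. Outside the complex, dimmer probe sets of FARSB, SARS1 and YARS1 passed as well. AIMP1, a scaffold protein of the complex, had a difference of -0.20 ± 0.07 (SE) and an adjusted p of 0.05, just under the threshold. The other 2 scaffold genes, AIMP2 and EEF1E1, had no probe set with a single symbol.

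Of the mitochondrial enzymes MARS2, for methionine, had the largest rise. Its values were 5.40, 5.64 and 5.52 in medium and 6.17, 6.22 and 6.44 at 25 µg/mL. The 2.5 µg/mL (5.68, 5.69 and 5.81) and ion arrays (5.77, 5.70 and 5.84) all lay between these groups. The difference was 0.76 ± 0.09 (SE, limma adjusted p = 2.1e-05), or 0.15 and 0.33 under the control scalings. MARS2 lay at percentile 50.2 of all genes, so its fold depends on an unstated background. The other mitochondrial rises were smaller and less firm. AARS2 rose by 0.32 ± 0.11 (SE, limma adjusted p = 0.043) and RARS2, for arginine, by 0.24 ± 0.08 (SE, limma adjusted p = 0.029). They became -0.30 and -0.38 under poly-A scaling and -0.11 and -0.19 under hybridization scaling. The AARS2 call was also lost with median centring (0.29), with the most variable probe set (0.26), and without medium replicate 3, 2.5 µg/mL replicate 2 or 3, or any 25 µg/mL array. The RARS2 call was also lost with median centring (0.21), with only the 2 groups compared, and without medium replicate 1 or 25 µg/mL replicate 2 or 3. The mean of all RARS2 probe sets gave -0.03.

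IARS2, the mitochondrial isoleucyl enzyme, had values of 11.62, 11.56 and 11.64 in medium and 11.09, 11.15 and 11.07 at 25 µg/mL. The 2.5 µg/mL and ion arrays lay between 11.55 and 11.69, so only the 25 µg/mL arrays stood below the rest. The fall was 1.42-fold (-0.51 ± 0.07 SE, limma adjusted p = 9.7e-05). HARS2 fell from 9.17, 9.23 and 9.28 to 8.93, 8.93 and 8.83 (-0.33 ± 0.08 SE, limma adjusted p = 0.0035). NARS2, for asparagine, fell from 9.82, 9.90 and 9.92 to 9.50, 9.55 and 9.61 (-0.32 ± 0.08 SE, limma adjusted p = 0.0040). For both genes the exposed arrays were the lowest of all 12. IARS2, HARS2 and NARS2 kept their calls without any single array and under each alternative scaling.

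WARS2, for tryptophan, had 7.04, 7.36 and 7.23 in medium and 6.84, 6.86 and 6.59 at 25 µg/mL. The groups did not overlap, but ion replicate 1, at 6.76, lay among the exposed values. The difference was -0.45 ± 0.12 (SE, limma adjusted p = 0.011), and the call was lost without medium replicate 2 or 25 µg/mL replicate 3 (-0.36 in the latter fit) and with the mean of its probe sets. The other 8 measured mitochondrial enzymes did not pass. They ran from -0.23 for PARS2, the prolyl enzyme, to 0.37 for CARS2, whose 95% interval was 0.06 to 0.69 (limma adjusted p = 0.061).

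**Figure D2:**
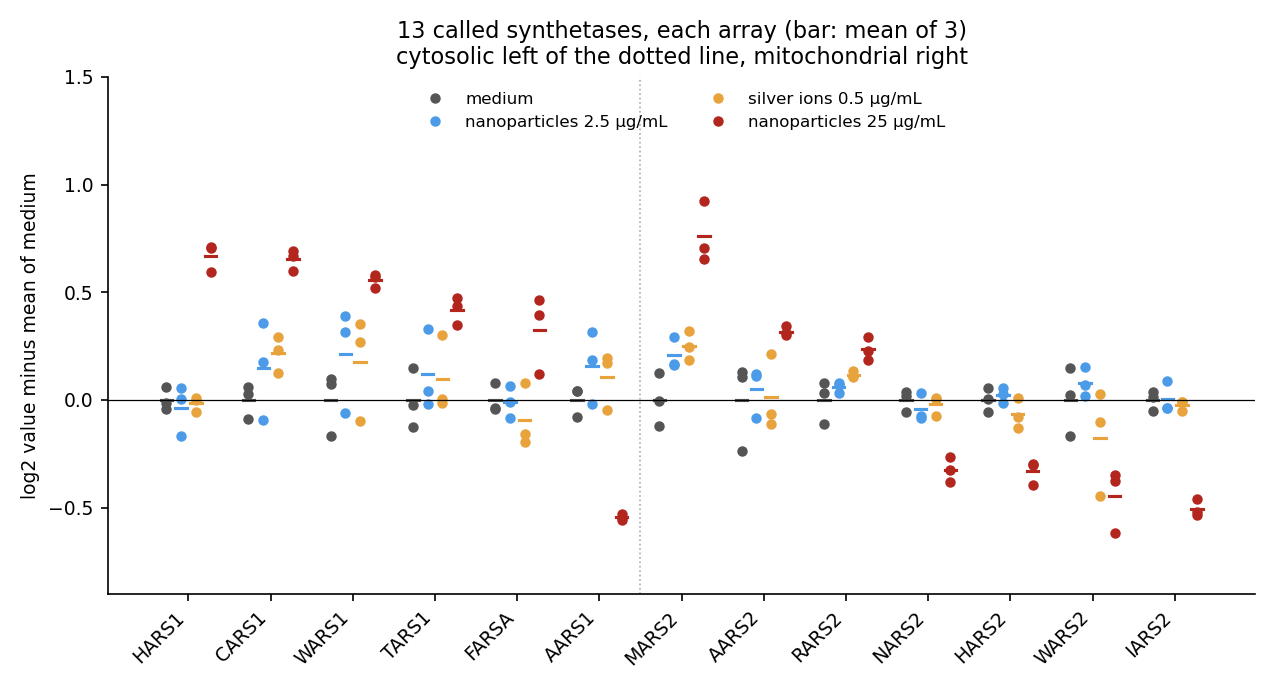
Log2 value of each array minus the medium mean, for the 13 members called at 25 µg/mL, under the authors' normalization. Points are arrays, coloured by group, and bars are means of 3. The 25 µg/mL arrays lie apart from the medium arrays for each member, above for 8 and below for 5; scaling on poly-A or hybridization controls lowers the 25 µg/mL points and leaves no rise called.

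Cytosolic and mitochondrial enzymes of 1 amino acid were paired where their symbols differ only in the last digit, as for HARS1 and HARS2. Both partners were measured for 11 such pairs. FARSA and FARSB were not compared with FARS2, nor EPRS1 with EARS2 and PARS2, although all of these were measured. In 3 of the 11 pairs both partners were called and moved in opposite directions under the authors' normalization. HARS1 rose and HARS2 fell, WARS1 rose and WARS2 fell, and AARS1 fell and AARS2 rose. Under either control scaling only the falling partner stayed called. The gap between partners within an array, the log2 value of the cytosolic enzyme minus that of the mitochondrial one, is free of array scaling. Only its change between groups has a meaning, since levels of different probe sets cannot be compared.

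For histidine the gap lay within 0.07 of its medium mean on the medium arrays and stood 0.90, 1.00 and 1.11 above it at 25 µg/mL. The tryptophan gap stood at 0.24, -0.05 and -0.19 in medium and at 0.96, 0.92 and 1.14 at 25 µg/mL. The alanine gap went the other way, from -0.09, -0.07 and 0.16 to -0.84, -0.85 and -0.90. On average the histidine and tryptophan gaps each rose by 1.00 on the log2 scale, and the alanine gap changed by -0.86. The size of the tryptophan gap depends on the probe set. The dimmer WARS2 probe sets, with means of 6.19 and 3.73, differed from medium by -0.14 and 0.07, and the other WARS1 probe set by 0.44. HARS1 and HARS2 had a single probe set each. For isoleucine, where IARS1 did not pass and IARS2 fell, the gap rose by 0.69, with arrays at 0.75, 0.65 and 0.68. In 6 of 11 pairs the exposed and medium arrays did not overlap, and in 5 they did. Each of these 6 gave an exact permutation p of 0.10, two-sided, the smallest that 3 against 3 arrays allow, and 0.18 adjusted over the 11 pairs. For histidine, tryptophan, alanine and isoleucine this outcome was fixed by the single genes. Each partner there had already set the groups apart, in opposite directions, so the gap could not overlap and its p adds no test. Of all single genes 45.7% did not overlap in this comparison, and the share over other pairs of genes was not computed. At 2.5 µg/mL and with ions the histidine gap changed by -0.06 and 0.05, and the tryptophan gap by 0.14 and 0.35.

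**Figure D3:**
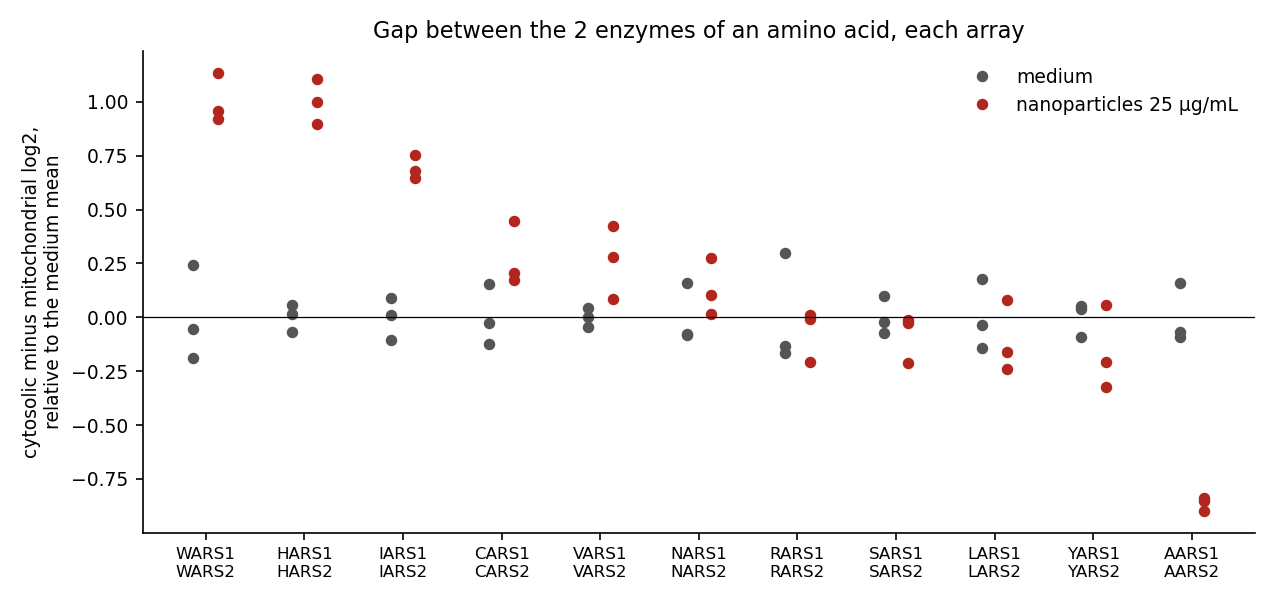
Change in the gap between the cytosolic and the mitochondrial enzyme of 1 amino acid, in log2 units relative to the medium mean of that pair, for 11 pairs. Points are arrays in medium (grey) and at 25 µg/mL (red). The tryptophan, histidine and isoleucine gaps lie 0.65 to 1.14 above the medium mean and the alanine gap 0.84 to 0.90 below it. Array scaling cannot move these values, but the choice of probe set can, as for WARS2.

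Averaged over all members, the classes differed little. The cytosolic median at 25 µg/mL was 0.17 and the mitochondrial median 0.07, against -0.01 over all genes. Per array, the mean over cytosolic enzymes was 0.16 above medium and that over mitochondrial enzymes 0.03 above. The difference between the class means was 2.30 ± 0.08 in medium and 2.43 ± 0.03 with 25 µg/mL particles (SD, n = 3), with arrays of 2.40 to 2.46 against 2.25 to 2.40. The change of 0.13 therefore came with groups whose nearest arrays almost touched. At 2.5 µg/mL this difference ranged from 2.20 to 2.47 and with ions from 2.30 to 2.45, across both.

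HARS1 and HARS2 lie head to head on chromosome 5, and their RefSeq starts are 85 bases apart. The stretch between the starts is shown because 1 short region thus lies upstream of both members, which moved in opposite directions under the authors' normalization. Under poly-A and hybridization control scaling HARS1 (0.06 and 0.24) was not called, while HARS2 stayed lower. It spans chr5:140691371-140691454 of GRCh38.p14 and is written along the plus strand, with HARS1 leaving to the left and HARS2 to the right. Capitals mark the motif CCGGAAGT on either strand, a core bound by ETS factors, which was chosen after the sequence was seen. It occurs 2 times here and in 4.14% of all 300-base promoter windows of the RefSeq table. Of the windows of the synthetases 9 of 39, or 23.1%, held it, those of HARS1 and HARS2 and also those of CARS1, EARS2, NARS1, PARS2, TARS1 and WARS1. The HARS1 and HARS2 windows both hold the stretch from which the motif was chosen, so the member share is no test of enrichment.
HARS1-HARS2: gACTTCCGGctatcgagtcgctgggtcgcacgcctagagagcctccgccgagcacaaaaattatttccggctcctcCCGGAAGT

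ATF4 binds, with C/EBP partners, to elements of the form TGATGCAA. This motif was searched on both strands in windows from 250 bases before to 50 bases after each RefSeq start. Of the 35 members 30 had a window, and 6 of these held the motif: AARS1, CARS1, IARS1, MARS1, NARS1 and TARS1. All 6 are cytosolic. By window that is 6 of 39, or 15.4%, against 0.866% of all 35116 windows. The looser form TGATGNAA, which contains the first, was found in 20.5% of member windows, with GARS1 and YARS2 added, and in 3.62% of all. The 5 measured members with the exact motif are shown because they did not share a direction under the authors' normalization. There CARS1 and TARS1 rose at 25 µg/mL, AARS1 fell, and IARS1 (0.19) and NARS1 (-0.19) did not pass. Poly-A scaling gave AARS1 -1.16 and NARS1 -0.80, both called lower. It left IARS1 (-0.43), TARS1 (-0.19) and CARS1 (0.04) without a call, and hybridization scaling called the same genes. The other TARS1 probe set gave -0.78 under the authors' normalization. Sequences are from GRCh38.p14 in the direction of each gene, all on the minus strand except TARS1, and capitals mark the match.
AARS1: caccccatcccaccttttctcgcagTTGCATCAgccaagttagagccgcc
CARS1: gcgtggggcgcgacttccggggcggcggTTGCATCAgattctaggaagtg
IARS1: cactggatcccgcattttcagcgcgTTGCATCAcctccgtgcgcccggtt
TARS1: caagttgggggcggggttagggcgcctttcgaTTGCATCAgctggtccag
NARS1: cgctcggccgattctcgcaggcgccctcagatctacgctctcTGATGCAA
These windows are chr16:70289669-70289718, chr11:3057404-3057453, chr9:92293686-92293735, chr5:33440935-33440984 and chr18:57621815-57621864. The match begins 187 bases before the start of AARS1, 13 before that of IARS1 and 2 before that of CARS1, and at base 3 after the start of TARS1 and base 15 after that of NARS1. A match describes letters only and does not show binding.

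At 2.5 µg/mL and with ions, 0 of the 32 members passed in limma, as did 0 of all 19775 genes (0%). At an unadjusted p under 0.05 there were 2 members at 2.5 µg/mL and 3 with ions, against 900 and 1233 of the 19775 genes, and fits with an intensity trend or array weights also called 0. Differences ran from -0.18 to 0.22 at 2.5 µg/mL and from -0.18 to 0.30 with ions, and the 95% intervals of all members lay between -0.46 and 0.54. These bounds hold under the authors' normalization, and the poly-A controls differed from medium by -0.13 at 2.5 µg/mL and -0.18 with ions. The groups did not overlap for 3 members at 2.5 µg/mL, 2 higher and 1 lower, against 9.96% of all genes (5.45% higher and 4.51% lower). With ions this held for 4 members, all higher, against 10.4% of all genes (5.32% higher and 5.13% lower). IARS1 and MARS2 were among both, higher in each case. IARS1 lay at 10.68, 10.70 and 10.59 in medium, at 10.92, 10.77 and 10.95 at 2.5 µg/mL and at 10.91, 10.77 and 10.84 with ions (differences of 0.22 and 0.18, limma unadjusted p = 0.016 and 0.042). The largest ion difference was that of RARS1, 0.30 (limma unadjusted p = 0.015), with ion arrays at 8.16, 7.99 and 7.88 that overlapped medium arrays at 7.90, 7.61 and 7.62. Both comparisons share the medium arrays.

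**Figure D4:**
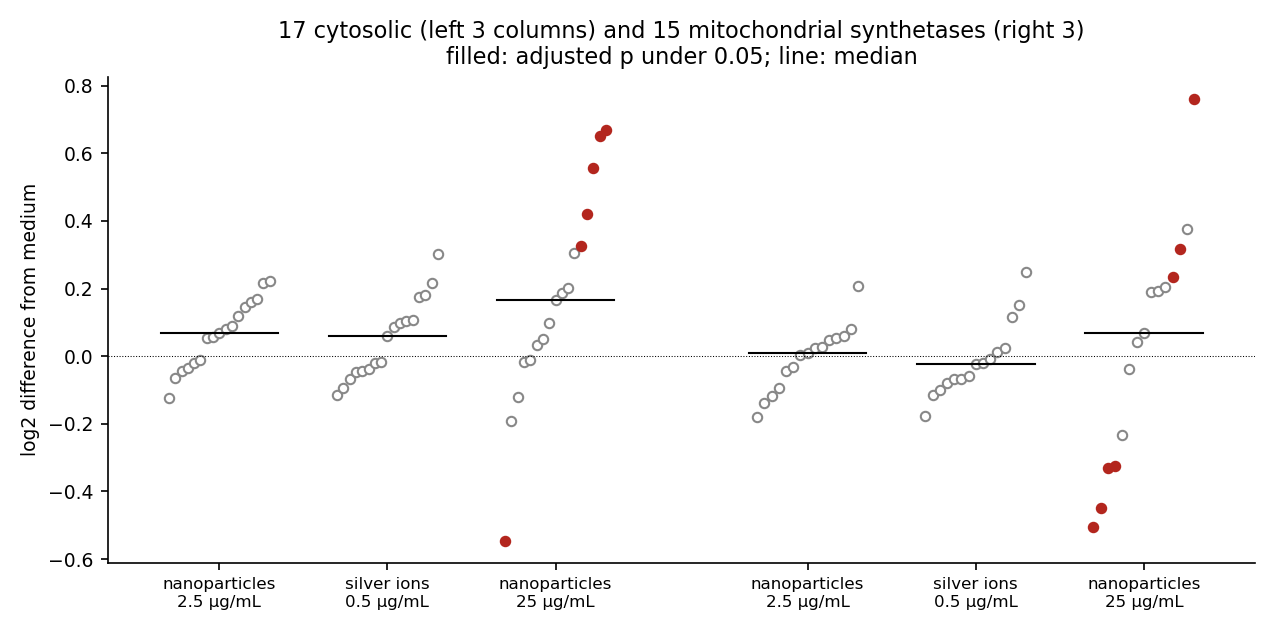
Log2 difference from medium of each synthetase at 2.5 µg/mL nanoparticles, 0.5 µg/mL silver ions and 25 µg/mL nanoparticles, for 17 cytosolic (left) and 15 mitochondrial enzymes (right), under the authors' normalization. Each point is a gene, lines are medians, and filled points passed an adjusted p of 0.05. Points at the lower exposures stay between -0.18 and 0.30, and those at 25 µg/mL spread from -0.55 to 0.76; poly-A and hybridization scaling move the 25 µg/mL columns down, where no rise stays called.

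Set against the lower particle dose, the 25 µg/mL arrays gave 8 higher and 5 lower members, where 34% of all genes were called, 13.7% higher and 20.3% lower. The arrays of these groups did not overlap for 18 members, 13 higher and 5 lower, against 45.3% of all genes, 19.6% higher and 25.7% lower. AARS1 (-0.71), WARS2 (-0.53), IARS2 (-0.51), HARS2 (-0.35) and NARS2 (-0.28) were lower. HARS1 (0.71), MARS2 (0.55) and CARS1 (0.51) were the highest. VARS1 (0.43), CARS2 (0.47), EARS2 (0.31) and LARS2 (0.38), which did not pass against medium, passed here, and WARS1, TARS1, AARS2 and RARS2 did not. Poly-A scaling left no rise called against 2.5 µg/mL or against ions, and hybridization scaling left 1 against 2.5 µg/mL and 0 against ions. Against ions, whose dose differs by mass as well as form, 10 members were higher and 4 lower, where 32.3% of all genes were called, 13.7% higher and 18.6% lower. Here 19 members did not overlap, 13 higher and 6 lower, against 43% of all genes, 18.8% higher and 24.3% lower. EPRS1 passed in this comparison alone, at 0.24 ± 0.08 (SE, limma adjusted p = 0.023). These comparisons share the 25 µg/mL arrays with the one against medium. Between the lower particle dose and ions no member passed, with 0 called by limma, 1 at an unadjusted p under 0.05 and differences from -0.24 to 0.25. Their arrays did not overlap for 3 members, 1 higher and 2 lower at 2.5 µg/mL, against 13.4% of all genes, 6.39% higher and 6.98% lower.

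Some genes that work beside the synthetases had larger changes. The counts below are to be read against 14.1% of all genes called higher and 19.3% lower, 33.4% in all. Of 7 genes for tRNA export, end addition and editing, 2 rose and 3 fell at 25 µg/mL, and poly-A scaling gave 0 and 5, hybridization scaling 0 and 4. SEPSECS, which makes selenocysteine on its tRNA after SARS1 has charged it with serine, fell 2.03-fold, while PSTK, which phosphorylates that serine, rose 1.49-fold, or -0.04 on the log2 scale under poly-A scaling. SARS1 had -0.02 and EEFSEC, the elongation factor for that tRNA, fell by 0.35. XPOT, the tRNA exporter, did not pass (-0.18). Among 5 cytosolic elongation factors 1 rose and 2 fell, or 0 and 4 under either control scaling, with EIF5A at 0.49, turning to -0.12 under poly-A scaling.

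Of 9 measured mitochondrial translation factors, 1 rose and 3 fell, and the median was -0.08. Either control scaling gave 0 higher and 6 lower. MTFMT, which formylates the methionyl-tRNA that MARS2 makes, fell 1.68-fold (-0.75 ± 0.13 SE), in the opposite direction to MARS2. The initiation factors MTIF3 and MTIF2, which act with that initiator tRNA, fell 1.98-fold and 1.25-fold. MTRF1L, a release factor, rose 1.68-fold, a call lost under both control scalings (0.14 and 0.32). Of the 3 amidotransferase subunits that make mitochondrial glutaminyl-tRNA, GATC fell by 0.39. Of 12 genes for mitochondrial tRNA processing and modification, 4 rose and 0 fell in limma, with 6 at an unadjusted p under 0.05. This turned to 0 higher and 6 lower under poly-A scaling and to 1 and 5 under hybridization scaling. TRMT10C, a subunit of mitochondrial RNase P, rose 1.83-fold, and under poly-A scaling lost its call (0.26).

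ATF4 itself did not pass at 25 µg/mL (-0.22 ± 0.08 SE, limma adjusted p = 0.063), nor did EIF2AK4 (-0.14). Both were called lower under poly-A scaling (-0.83 and -0.75) and hybridization scaling (-0.64 and -0.56). Of 25 measured ATF4-related genes outside the synthetases, 8 rose and 3 fell, and their median was -0.03. Poly-A scaling gave 3 higher and 15 lower (median -0.64), and hybridization scaling 3 and 14 (median -0.46). ATF3, PPP1R15A and SESN2 rose 3.61-fold, 3.09-fold and 2.37-fold and kept their calls under both control scalings. ASNS, asparagine synthetase and a classical ATF4 target, had 0.04 ± 0.13 (SE, limma adjusted p = 0.85), or -0.57 and -0.38, both called lower, under the control scalings, and ALDH18A1 fell by 0.68. Of 14 amino acid transporters, 8 rose and 2 fell, or 3 and 5 under either control scaling, and the list median was 0.39, or -0.22 and -0.03 with poly-A and hybridization scaling. SLC7A11, which imports cystine, rose 2.91-fold, SLC7A5, which imports leucine and tryptophan, 2.84-fold, and SLC1A4 2.35-fold, and these 3 stayed called under both scalings. Of 11 genes of the eIF2 pathway, 2 rose and 3 fell, where poly-A scaling gave 0 and 7 and hybridization scaling 1 and 6, with EIF2S1, the alpha subunit of eIF2, at 1.00, or 0.39 without a call under poly-A scaling, and EIF2AK2 at -0.90.

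**Figure D5:**
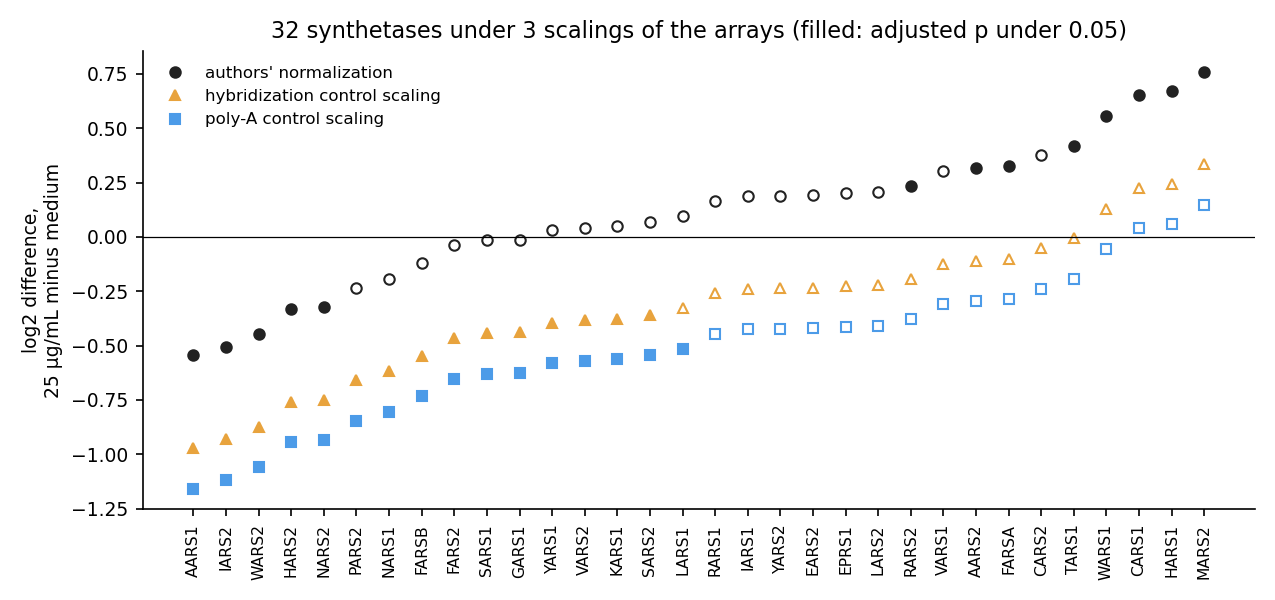
Log2 difference between 25 µg/mL and medium for the 32 synthetases under the authors' normalization (circles), hybridization control scaling (triangles) and poly-A control scaling (squares). Filled symbols passed an adjusted p of 0.05. The order of the genes is the same in each series, with 8 higher and 5 lower members called for circles, 0 and 15 for triangles, and 0 and 16 for squares.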

How the data were processed

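Total RNA of 12 samples was measured on 3' expression arrays, 1 per sample. The authors deposited a log2 value for each probe set. Per the submitters' processing notes, Partek and RMA were used; the sources used here give no settings. Column means were equal at 5.57, so a change in total mRNA per cell does not show. There are no detection calls, and the number of arrays limits the precision.

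Of 54675 probe sets, 41091 had 1 gene symbol, 1801 several and 11777 none listed. Symbols were updated through the gene ID, giving 19775 genes. One limma model (version 3.58.1, R 4.3.3) over the 4 groups gave 6 contrasts, each two-sided, on 8 residual plus 6.25 prior degrees of freedom, with Benjamini-Hochberg adjustment over all genes. In simulated data with 200 changed genes among 19775, 99% of 2-fold and 86% of 1.5-fold changes were recovered at 25 µg/mL. The simulated noise was independent between genes, whereas 33.4% of genes were called in the data, so these rates need not hold there. Changes smaller than 1.5-fold, as most of the called member changes are, were not simulated.

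Members, lists and rules were chosen with earlier results of these data known. By the naming rule any member may be named, array values are given for up to 8 cytosolic and 6 mitochondrial called members with the largest changes and for those called against most of their class, and each other list gives up to 4 called genes, besides ATF4, ASNS, AIMP1, AIMP2, EEF1E1, EIF2AK4 and XPOT. No 2 arrays were identical. Promoters are from RefSeq (GRCh38.p14). Alternatives were quantile normalization, median centring, scaling on 24 poly-A or 18 hybridization control probe sets, a filter on dim genes, other choices of probe set, an intensity trend, array weights, fits of 2 groups, an adjusted p under 0.01, and leaving out each array. Figures were drawn with matplotlib 3.10.9.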

Additional observations from a re-analysis of the deposited data

Results flagged for a closer look

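Control probe sets, which no comparison uses, were brighter at 25 µg/mL than in medium. The difference was 0.613 on the log2 scale for the 24 poly-A probe sets, 0.427 for the 18 hybridization probe sets and 0.643 for the 6 ribosomal RNA probe sets. The poly-A means were 6.21, 5.56 and 6.31 at 25 µg/mL and 5.31, 5.54 and 5.39 in medium, so the second exposed array lay close to the medium range. The hybridization means were 10.97, 10.89 and 11.08 against 10.57, 10.43 and 10.66. The differences in these controls lie between the same groups as the rises and falls given for 25 µg/mL against medium. Their part in those results was not tested.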

How the results depend on the processing

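No paired analysis was possible because the labels give each array a letter of its own and no number shared between groups. Among 27 counts and medians, 26 stayed near their value under quantile normalization and when probe sets of a gene were averaged. Under median centring 25 did, and all 27 did with array weights and with only the 2 groups compared. Near means within a set ratio for counts and within the SD between arrays for medians, and not equal. Array weights gave 10 higher and 5 lower members against medium, in place of 8 and 5. The 27 include the counts of 0 in comparisons without the 25 µg/mL group, which had little room to move. Counts of 0 at 2.5 µg/mL and with ions, and between them, stayed at 0 under every alternative run.

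The control scalings moved most. At 25 µg/mL against medium, cytosolic members went from 5 higher and 1 lower to 0 and 8 under poly-A scaling and to 0 and 7 under hybridization scaling, and mitochondrial members from 3 and 4 to 0 and 8 under both. The cytosolic median turned to -0.45 (poly-A) and -0.26 (hybridization), and the mitochondrial one to -0.54 and -0.36. Against 2.5 µg/mL, poly-A scaling gave 0 higher and 11 lower in each class; hybridization scaling gave 1 and 7 cytosolic and 0 higher mitochondrial members. Against ions, poly-A scaling gave 0 and 11 cytosolic and 0 and 13 mitochondrial members, and hybridization scaling 0 and 10 and 0 and 7. Of the members called under either normalization, those that turned under poly-A scaling were FARSA (-0.29), KARS1 (-0.56), LARS1 (-0.52), TARS1 (-0.19), WARS1 (-0.057), YARS1 (-0.58), AARS2 (-0.30), RARS2 (-0.38), SARS2 (-0.54) and VARS2 (-0.57), and under hybridization scaling FARSA (-0.10), KARS1 (-0.38), TARS1 (-0.0066), YARS1 (-0.39), AARS2 (-0.11), RARS2 (-0.19), SARS2 (-0.36) and VARS2 (-0.38). EPRS1, IARS1, RARS1, VARS1, CARS2, EARS2, LARS2 and YARS2 went below 0 under both, and LARS1 under hybridization scaling, without a call under the normalizations compared.

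The choice of probe set turned FARSB (0.24 with the mean, 0.50 with the most variable probe set), TARS1 (-0.18 and -0.78), RARS2 (-0.027 and -0.16) and SARS1 (0.40 with the most variable). Against 2.5 µg/mL, 7 cytosolic members were higher with the mean and with the most variable probe set. The latter gave 2 lower cytosolic members in each of the 3 comparisons with 25 µg/mL, and a cytosolic median of 0.30. Without dim genes 8 cytosolic members were higher against medium and 2 lower against ions, and the mitochondrial median was 0.13, as with quantile normalization. An intensity trend gave 8 higher and 2 lower cytosolic members against medium and 2 lower against ions. Median centring gave 1 higher mitochondrial member against medium and 2 against 2.5 µg/mL. At an adjusted p under 0.01, 3 cytosolic and 1 mitochondrial members were higher against medium, 1 mitochondrial against 2.5 µg/mL, and 3 and 1 against ions. The causes of these changes were not tested, apart from scaling, which lowers all genes alike.

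Leaving out each array gave 3 to 7 higher cytosolic, 1 to 3 higher and 3 to 5 lower mitochondrial members against medium, and 1 lower cytosolic member each time. The 3 came without medium replicate 3, and the 1 without 25 µg/mL replicate 2 or 3. Against 2.5 µg/mL the ranges were 3 to 5 and 1 to 2 for cytosolic members higher and lower and 1 to 5 higher mitochondrial members, the lowest without 2.5 µg/mL replicate 1 or 3 or 25 µg/mL replicate 3. Against ions they were 3 to 7 higher cytosolic, 1 to 3 higher and 2 to 4 lower mitochondrial members, the lowest higher counts without 25 µg/mL replicate 3. The medians ranged from 0.11 to 0.20 (cytosolic) and from 0.013 to 0.12 (mitochondrial), and the change in the difference between class means from 0.10 to 0.18.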

Other observations

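Synthetases fall into 2 structural classes by the fold of their catalytic domain, in either compartment. EPRS1, fused from a glutamate and a proline enzyme, was counted in class I only. At 25 µg/mL 4 of 17 measured class I members rose and 2 fell, with a median of 0.19, and 4 of 15 class II members rose and 3 fell, with a median of -0.02. Over all genes 14.1% were called higher and 19.3% lower. Poly-A scaling left 0 higher and 5 lower in class I (median -0.42) and 0 and 11 in class II (median -0.63), and hybridization scaling 0 and 4, and 0 and 11. The difference between the classes was not tested.

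Besides HARS1 and HARS2, several members had a divergent neighbour whose RefSeq start lay within 1000 bases and that was measured. Next to KARS1 (0.05) TERF2IP, a telomere-binding protein gene, fell by 0.42, and next to EARS2 (0.19) UBFD1 fell by 0.27. WDR25, beside WARS1 (0.56), had -0.09, ORC3, beside RARS2 (0.24), had -0.07, LYRM4, beside FARS2 (-0.04), had -0.25, and MRPS12, a mitochondrial ribosomal protein gene beside SARS2 (0.07), had 0.11. These 4 neighbours did not pass in limma. The neighbours were looked up after the values were seen.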
